A study of Homo sapiens with 6 samples.

Results

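The enzymes of glycolysis, the pentose phosphate pathway, gluconeogenesis and the tricarboxylic acid (TCA) cycle were compared between Huh7 cells that carried a VersicanV1 knockdown lentivirus (labelled sh2) and Huh7 cells that carried a control lentivirus (labelled shNC). The genes were taken from a fixed list of 50 symbols; 48 of them matched 1 row each among the 23344 rows of the deposited expression table, and G6PC and PCK1 were not analysed here. Huh7 is an established human liver cancer line, and versican, encoded by VCAN, is a proteoglycan secreted into the matrix around cells. There were 3 libraries in each group, the knockdown libraries bear the name of a single hairpin, and all 6 came from 1 cell line. Nothing in the labels tells separate cultures from repeat libraries of 1 culture, and p-values therefore cover the spread among these 6 libraries alone, possibly technical. All values are on the deposited scale, treated as FPKM (fragments scaled to transcript length and to the reads of the library), which allows levels of different genes to be set side by side per length.

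Glycolysis splits glucose into pyruvate in the cytosol, and lactate dehydrogenase turns pyruvate into lactate with the recovery of NAD+. The pentose phosphate pathway branches off to make NADPH and ribose, gluconeogenesis runs the sugar pathway backwards in liver, and the TCA cycle oxidises the carbon of pyruvate in mitochondria after pyruvate dehydrogenase has made acetyl-CoA. Most steps are served by several isozymes, and liver cancer cells are known for a shift from the isozymes of the adult liver to those of proliferating tissue.

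The targeted gene and the makeup of the libraries were examined before the enzymes. VCAN had 1.90, 1.74 and 1.64 in knockdown replicates 1, 2 and 3, against 4.79, 6.24 and 8.10 in control replicates 1, 2 and 3, so the groups did not overlap (log2 fold change (knockdown minus control) -1.39, SE 0.19, limma adjusted p = 0.0103; adjusted p = 0.0562 without control replicate 2). All 9 hepatocyte markers were present in each library, with ALB averaging 3755 in knockdown and 3284 in control libraries. Mitochondrially encoded transcripts (15 rows) took 23.8%, 27.0% and 31.2% of all values in knockdown replicates 1, 2 and 3, against 17.5%, 16.0% and 19.2% in control replicates 1, 2 and 3. Knockdown replicate 2 also held transcripts of blood cells. The summed value of 11 leukocyte and blood cell markers was 51.3, 141 and 40.9 in knockdown replicates 1, 2 and 3. It was 23.0 to 28.9 in control libraries. LYZ was the largest single part of each sum. It had 44.5, 68.2 and 37.8 in knockdown replicates 1, 2 and 3, against 18.3 to 24.8 in control libraries. S100A8 and SRGN were listed at 0 in the 5 other libraries and at 17.9 and 3.67 in knockdown replicate 2. Of 5 fibroblast and endothelial markers LUM averaged 162 in knockdown and 170 in control libraries, and the other 4 were at 1.01 or less in all libraries. The part of the mitochondrially encoded and blood cell transcripts in the results was not tested; values rescaled without the first, and values without knockdown replicate 2, are given beside the enzyme genes that fell.

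Of the 44 enzyme genes that reached 1 in 3 or more libraries, 4 fell in the knockdown libraries and 0 rose (limma on log2(value + 1), Benjamini-Hochberg adjusted p below 0.05 over all genes tested). The 4 were ALDOA, PGAM1 and LDHA of glycolysis and MDH2 of the TCA cycle. They are 9.09% of the enzyme genes tested, beside 3.94% of all 13696 genes tested that fell, 4.15% that rose and 8.08% that passed in either direction. At an unadjusted p below 0.05, 15 enzyme genes were lower and 1 was higher. The median log2 fold change of the 44 genes was -0.21, beside -0.03 for all genes tested, and 35 of the 44 had a fold change below 0, beside 53.5% of all genes. The knockdown libraries lay below every control library for 18 of the 44 genes (40.9%, beside 18.7% of all genes tested) and above every one for 2 genes (4.55%, beside 14.4%); in either direction the groups were apart for 33.1% of all genes tested. These counts are on the deposited scale. GPI, PGK1, ENO1, PDHB, ACO1, IDH3A, IDH3B and MDH1, of these 18, overlapped when scaled to library totals without mitochondrially encoded transcripts. The share over all genes was not computed with that scaling. These are bulk libraries, so fewer cells of a type and less RNA per cell cannot be told apart.

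The calls depended on the scaling and on which libraries entered. With each library scaled to its total without mitochondrially encoded transcripts, 1 of the 44 genes fell (ALDOA) and the median was -0.10, beside 0.06 for all genes; with the same total per library 9 fell, and with no filter on low values 0 fell. No enzyme gene passed when any single library other than knockdown replicate 1 was left out (limma; 9 to 16 at an unadjusted p below 0.05), while without knockdown replicate 1 there were 11 that fell and 1 that rose.

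**Figure D1:**
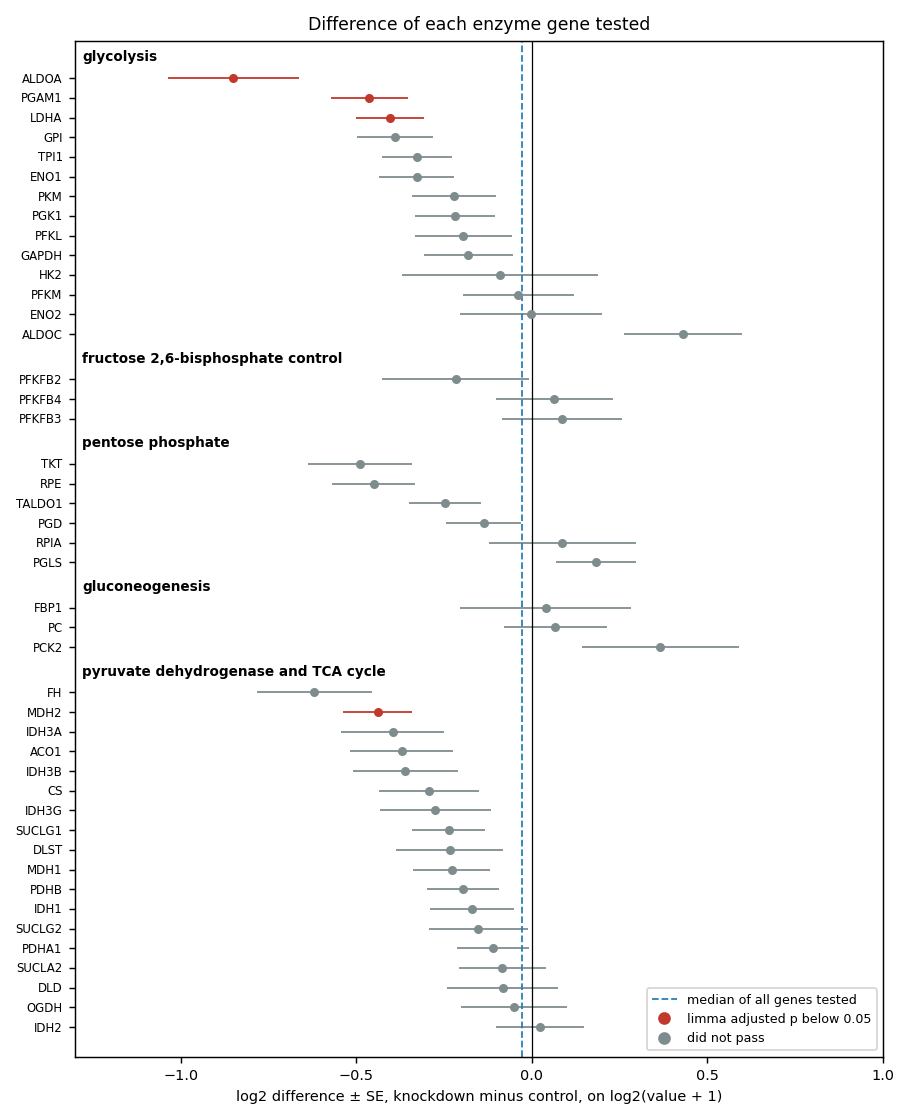
Log2 difference (knockdown minus control, on log2(value + 1)) of each of the 44 enzyme genes tested, with its standard error, by pathway; red points passed at a limma adjusted p below 0.05, and the dashed line is the median of all genes tested (-0.03). ALDOA, PGAM1, LDHA and MDH2 passed, and 13 of 14 glycolytic and 17 of 18 pyruvate dehydrogenase and TCA genes lie below 0.

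In glycolysis, 3 of 14 genes tested fell (21.4%, beside 3.94% of all genes tested) and 0 rose. Of the 14, 13 were below 0, and the median log2 fold change was -0.22. With scaling to the total without mitochondrially encoded transcripts, 1 fell and 10 of 14 were below 0. The median was then -0.11, beside 0.06 for all genes. The glycolytic median minus that of all genes was -0.191 as reported and -0.175 with this scaling. The summed value of the 18 glycolytic genes was 8427, 7644 and 7199 in knockdown replicates 1, 2 and 3, against 10044, 9555 and 9406 in control replicates 1, 2 and 3. GAPDH makes up the largest single share of these sums. The sums of the groups did not overlap.

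ALDOA, the aldolase that splits fructose bisphosphate into triose phosphates, had the lowest log2 fold change of the 44 enzyme genes. Its value was 907, 639 and 519 in knockdown replicates 1, 2 and 3, against 1269, 1154 and 1207 in control replicates 1, 2 and 3. Each knockdown library was below each control library, and replicate 1 was the least affected of the knockdown libraries. The knockdown mean was 689 ± 199 and the control mean 1210.1 ± 57.1 (SD, n = 3 each), a log2 fold change of -0.85 (SE 0.19, limma adjusted p = 0.0336). Without knockdown replicate 2 the log2 fold change was -0.82 (adjusted p = 0.107), and it was -0.74 (adjusted p = 0.0286) with scaling to the total without mitochondrially encoded transcripts.

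LDHA, which encodes the A subunit of lactate dehydrogenase, was among the 114 rows with the highest control mean. It had 970.5, 983 and 926 in knockdown replicates 1, 2 and 3, against 1255, 1306 and 1251 in control replicates 1, 2 and 3. The values within each group were close together and the groups stood apart. The log2 fold change was -0.40 (SE 0.10, limma adjusted p = 0.0416), with -0.42 (adjusted p = 0.132) without knockdown replicate 2 and -0.30 (adjusted p = 0.0772) with scaling to the total without mitochondrially encoded transcripts.

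PGAM1, the phosphoglycerate mutase that moves the phosphate group of phosphoglycerate ahead of enolase, had 167, 203 and 187 in knockdown replicates 1, 2 and 3, against 247, 267 and 253 in control replicates 1, 2 and 3. The groups did not overlap. The log2 fold change was -0.46 (SE 0.11, limma adjusted p = 0.0413), with -0.53 (adjusted p = 0.0890) without knockdown replicate 2 and -0.35 (adjusted p = 0.117) with scaling to the total without mitochondrially encoded transcripts. ALDOA, LDHA, PGAM1 and other glycolytic genes have near-identical processed pseudogenes, between which the authors' counting could split reads. The pseudogene rows named after LDHA and after PGAM1 (2 rows each) summed to at most 0.109% and 0.190% of the gene's own value in any library. No pseudogene row named after ALDOA was found, so no such share can be given for ALDOA.

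The promoters of the 4 genes that fell were read from the RefSeq tables (GRCh38.p14), which hold windows of 300 bases from 250 before to 50 after an annotated start. They were searched for CACGTG, the E-box bound by the MYC and carbohydrate-response factor families, and for TGACGTCA, the cAMP response element; both read the same on either strand. Of the windows of these 4 genes, those that hold an E-box are shown, with both motifs in capitals. The first is the upstream LDHA window (chr11:18394313-18394612, plus strand), with 2 E-boxes and 1 cAMP response element; the other is 1 of 3 ALDOA windows (chr16:30064247-30064546, plus strand), with 1 E-box.
LDHA: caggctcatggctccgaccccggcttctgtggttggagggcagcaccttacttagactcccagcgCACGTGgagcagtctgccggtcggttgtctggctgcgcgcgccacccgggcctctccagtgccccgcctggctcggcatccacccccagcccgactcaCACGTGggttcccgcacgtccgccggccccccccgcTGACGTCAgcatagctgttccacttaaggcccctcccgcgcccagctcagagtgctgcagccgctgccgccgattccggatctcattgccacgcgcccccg
ALDOA: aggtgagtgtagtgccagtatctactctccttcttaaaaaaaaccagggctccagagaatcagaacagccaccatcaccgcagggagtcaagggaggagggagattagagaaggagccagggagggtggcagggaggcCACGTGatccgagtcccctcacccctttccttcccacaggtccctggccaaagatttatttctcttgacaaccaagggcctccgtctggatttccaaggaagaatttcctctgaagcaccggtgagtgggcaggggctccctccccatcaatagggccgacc
The other LDHA window, the other two ALDOA windows and the single PGAM1 and MDH2 windows hold neither set of letters. An E-box was present in 7.26% of all 35116 windows and in 8 of 73 windows (11%) of 46 enzyme genes, and the cAMP response element in 1.85% of all windows and in 1 of the 73. A match describes the letters alone.

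The other highly expressed steps had fold changes below 0 and did not pass. GPI, which interconverts glucose and fructose phosphates, had 103, 106 and 99.6 in knockdown replicates 1, 2 and 3, against 122, 142 and 142 in control replicates 1, 2 and 3 (log2 fold change -0.39, limma adjusted p = 0.0574). TPI1, triose phosphate isomerase, averaged 843 in knockdown and 1057 in control libraries (-0.33, adjusted p = 0.0741), and ENO1, the ubiquitous enolase, 791 and 992 (-0.33, adjusted p = 0.0897). On the deposited scale the groups did not overlap for GPI, TPI1, ENO1 and PGK1, while for GAPDH, PKM and PFKL they did. Of all genes tested, 18.7% had every knockdown value below every control value. With scaling to the total without mitochondrially encoded transcripts, GPI, ENO1 and PGK1 overlapped as well, and TPI1 did not. PGK1, which makes the first ATP of the payoff phase, had a log2 fold change of -0.22 (adjusted p = 0.242), PKM, the pyruvate kinase of proliferating tissue, also -0.22 (adjusted p = 0.258), and GAPDH -0.18 (adjusted p = 0.377). PFKL, the liver-type phosphofructokinase and a committed step, had 28.2 ± 3.04 in knockdown and 32.5 ± 4.2 in control libraries (SD, n = 3 each), with a log2 fold change of -0.20 (adjusted p = 0.385).

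ALDOC, the brain-type aldolase isozyme, was the only glycolytic gene tested with a fold change above 0. It had 25.8, 30.2 and 38.6 in knockdown replicates 1, 2 and 3, against 25.4, 23.8 and 19.6 in control replicates 1, 2 and 3. The lowest knockdown value and the highest control value nearly met, and the fold change of 0.43 did not pass (log2 scale, SE 0.17, limma adjusted p = 0.136). The ratio of ALDOC to ALDOA within a library, which does not depend on the scaling, was 0.0284, 0.0473 and 0.0743 in knockdown replicates 1, 2 and 3, against 0.0200, 0.0206 and 0.0163 in control replicates 1, 2 and 3. All 3 knockdown ratios were above the control ratios. This follows from ALDOC lying above and ALDOA below all control values in each knockdown library, and is not a further observation. An exact permutation test of groups this size cannot go below p = 0.1, and the ratios are given as a description. Of 8 isozyme ratios computed, the groups were also apart for PFKP to PFKL, at 0.0399 in knockdown and 0.00776 in control libraries. That ratio rests on PFKP values near the low end, at 0.76 to 1.52 in knockdown and 0.05 to 0.38 in control libraries.

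**Figure D2:**
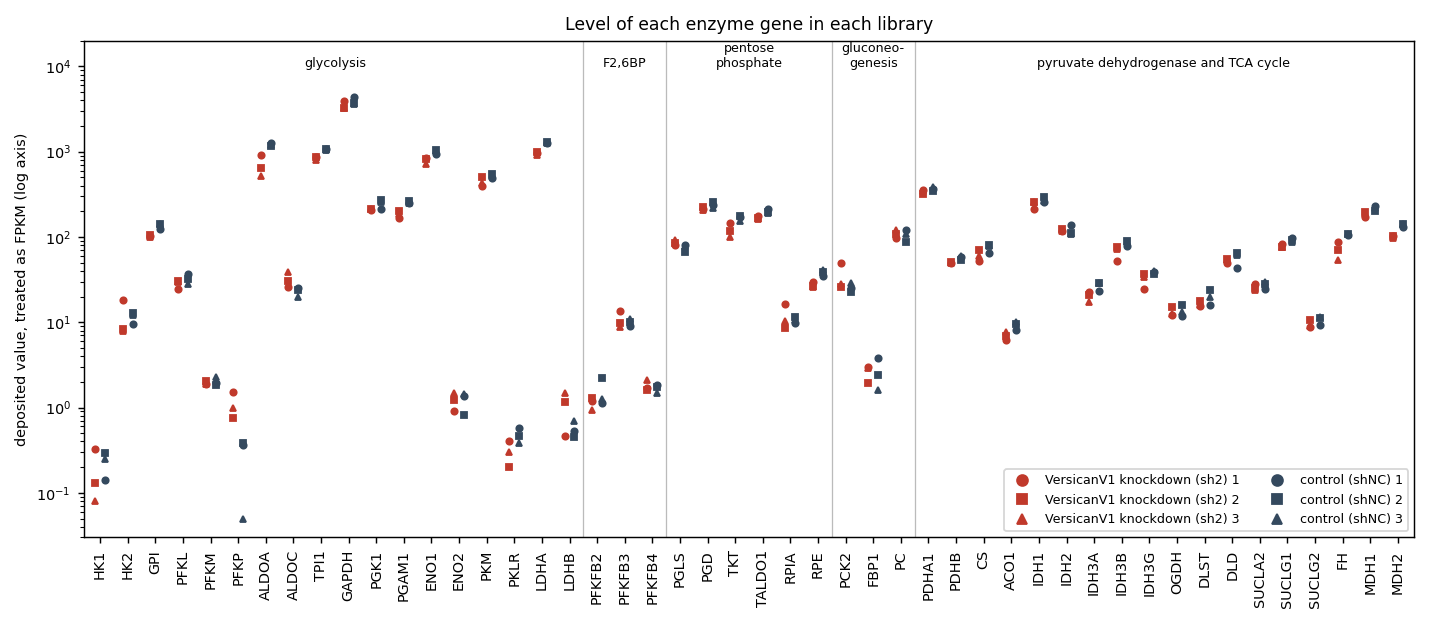
Value of each of the 48 enzyme genes in each of the 6 libraries on a log axis, with knockdown libraries left of control libraries and pathways separated by lines (F2,6BP is the control of fructose bisphosphate by PFKFB enzymes). GAPDH is the highest with a control mean of 3912, while HK1, PFKP, ENO2, PKLR and LDHB stay below 2 in every library.

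Within a step, isozymes differed widely in level per length. LDHB, the B subunit of lactate dehydrogenase, had 0.470, 1.17 and 1.5 in knockdown replicates 1, 2 and 3, against 0.530, 0.450 and 0.700 in control replicates 1, 2 and 3. LDHA was above LDHB by 1174 ± 779 times in knockdown and 2352 ± 557 times in control libraries (SD, n = 3 each), ratios that rest on LDHB values near the low end and that overlapped between groups. PKLR, the pyruvate kinase of liver and red cells, was at 0.3 ± 0.1 in knockdown and 0.477 ± 0.1 in control libraries, beside PKM at 446 ± 56.9 and 518 ± 26.0 (SD, n = 3 each). HK1, a hexokinase of most tissues, was at 0.330 or less in all 6 libraries.

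PFKP, the platelet-type phosphofructokinase, had 1.52, 0.760 and 0.980 in knockdown replicates 1, 2 and 3, against 0.36, 0.38 and 0.05 in control replicates 1, 2 and 3. Its groups did not overlap, but it reached a value of 1 in only 1 library and was not tested. With no filter on low values its log2 fold change was 0.72 (SE 0.19, limma adjusted p = 0.110); HK1, PKLR and LDHB, the other genes under the filter, had adjusted p-values from 0.407 to 0.799 in that fit. PFKM, the muscle-type isozyme, had a log2 fold change of -0.04 (adjusted p = 0.898), and ENO2, the neuronal enolase, was at 0.910 to 1.47 in knockdown and 0.820 to 1.46 in control libraries (-0.002, adjusted p = 0.995).

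HK2, the hexokinase of cancer cells that traps glucose as its phosphate, differed more within the knockdown group than between the groups. It had 18, 8.4 and 7.86 in knockdown replicates 1, 2 and 3, against 9.58, 12.7 and 12.1 in control replicates 1, 2 and 3. Knockdown replicate 1 was the highest library and the other knockdown libraries were the lowest, so the means were alike at 11.4 ± 5.70 in knockdown and 11.5 ± 1.68 in control libraries (SD, n = 3 each; log2 fold change -0.09, SE 0.28, limma adjusted p = 0.860). Knockdown replicate 1 was also the highest of the 6 libraries for PFKFB3, RPIA and PCK2, and for no other gene of the 44, while it was the lowest of the 6 for 13 of them.

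Fructose 2,6-bisphosphate, the strongest known activator of phosphofructokinase, is made and broken down by the bifunctional PFKFB enzymes. None of the 3 PFKFB genes passed (limma), and none had an unadjusted p below 0.05. PFKFB3, the isozyme with the highest kinase activity, had 13.5, 9.85 and 8.84 in knockdown replicates 1, 2 and 3, against 8.93, 9.99 and 10.9 in control replicates 1, 2 and 3 (log2 fold change 0.09, SE 0.17, adjusted p = 0.777). PFKFB4 was at 1.49 to 2.13 and PFKFB2 at 0.94 to 2.2 over all libraries. The groups overlapped for all 3 genes.

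In the pentose phosphate pathway 0 of 6 genes passed (limma), with 3 at an unadjusted p below 0.05, all lower, and a median log2 fold change of -0.19. RPE, the epimerase of ribulose phosphate, had 30.0, 26.7 and 26.2 in knockdown replicates 1, 2 and 3, against 34.8, 39.1 and 40.6 in control replicates 1, 2 and 3 (-0.45, SE 0.12, adjusted p = 0.0516). TKT, transketolase, which passes carbon between this pathway and glycolysis, had 145, 118 and 99.3 in knockdown replicates 1, 2 and 3, against 173, 178 and 153 in control replicates 1, 2 and 3 (-0.49, SE 0.15, adjusted p = 0.0733). For both genes each knockdown library was below each control library, and this was so for TALDO1, transaldolase, as well (-0.25, adjusted p = 0.153). PGD, which makes NADPH in the oxidative arm, had a log2 fold change of -0.14 (adjusted p = 0.428). PGLS, the lactonase before it, had 85.3 ± 5.21 in knockdown and 75.2 ± 6.85 in control libraries (SD, n = 3 each), with the groups apart, and did not pass (0.18, adjusted p = 0.325). RPIA, the isomerase that makes ribose phosphate, was at 16.2 in knockdown replicate 1 and between 8.62 and 11.5 in the 5 other libraries.

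Of the gluconeogenic genes analysed here, 0 of 3 passed (limma), none had an unadjusted p below 0.05, and all had fold changes above 0. PCK2, the mitochondrial phosphoenolpyruvate carboxykinase, had 48.9, 26.2 and 28.4 in knockdown replicates 1, 2 and 3, against 25.4, 22.6 and 28.9 in control replicates 1, 2 and 3. Knockdown replicate 1 stood alone: the log2 fold change was 0.37 (SE 0.22, adjusted p = 0.313) with all libraries and 0.09 without that one. PC, pyruvate carboxylase, which makes oxaloacetate, averaged 109 ± 12.4 in knockdown and 104 ± 16.6 in control libraries (SD, n = 3 each; 0.07, adjusted p = 0.799). FBP1, the phosphatase that opposes phosphofructokinase and is abundant in normal liver, was at 1.96 to 2.98 in knockdown and 1.6 to 3.78 in control libraries.

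**Figure D3:**
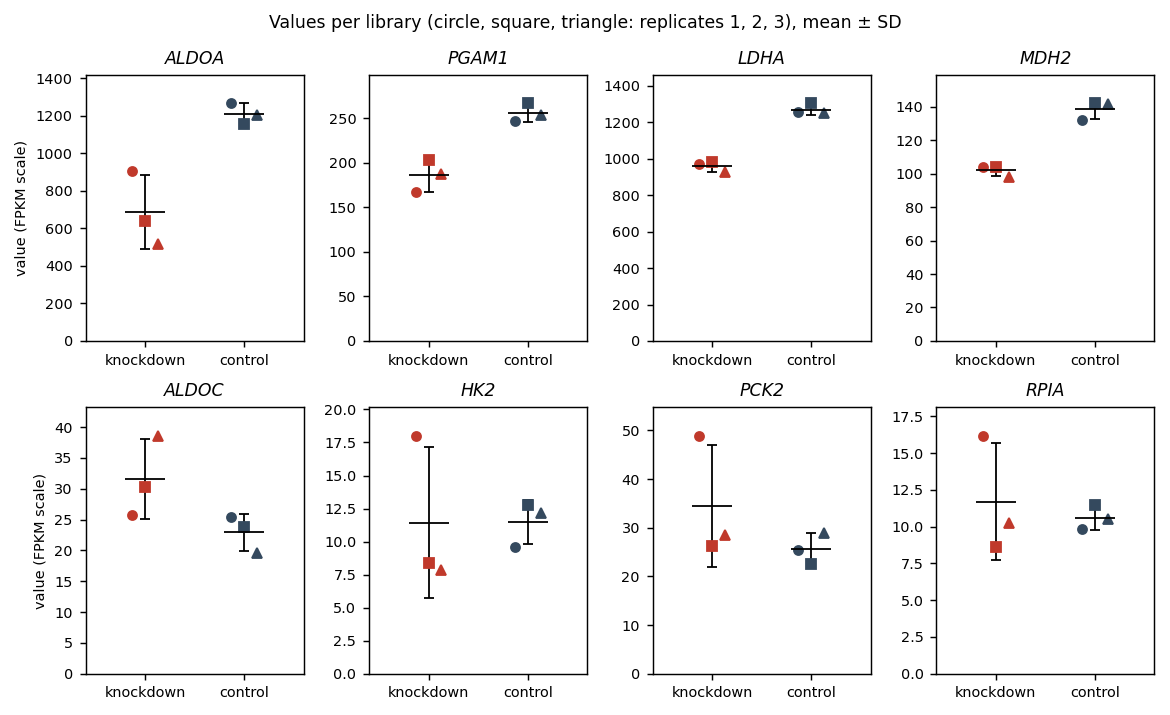
Values of 8 enzyme genes in each library, with the mean and SD of each group; the axes start at 0. ALDOA, PGAM1, LDHA and MDH2 have all knockdown values below all control values, while HK2, PCK2 and RPIA are highest in knockdown replicate 1 (circle).

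In pyruvate dehydrogenase and the TCA cycle, 1 of 18 genes fell (5.56%, beside 3.94% of all genes tested) and 0 rose. Of the 18, 17 had fold changes below 0, and the median was -0.23. With scaling to the total without mitochondrially encoded transcripts 0 passed (limma) and 14 of 18 were below 0. The median was then -0.12, beside 0.06 for all genes. The median of these genes minus that of all genes was -0.202 as reported and -0.188 with this scaling. The summed value of the 18 genes was 1453, 1535 and 1487 in knockdown replicates 1, 2 and 3, against 1710, 1739 and 1747 in control replicates 1, 2 and 3. On the deposited scale the sums did not overlap between groups. The total without mitochondrially encoded transcripts was 672763 in knockdown replicate 2 and 781475 in control replicate 1. Relative to these totals the sum of knockdown replicate 2 was above that of control replicate 1, so the groups overlapped.

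MDH2, the mitochondrial malate dehydrogenase that closes the cycle and takes part in the malate-aspartate shuttle, had 104, 104 and 97.8 in knockdown replicates 1, 2 and 3, against 132, 142 and 141 in control replicates 1, 2 and 3. The groups stood well apart beside the spread within them. The log2 fold change was -0.44 (SE 0.10, limma adjusted p = 0.0353), with -0.45 (adjusted p = 0.115) without knockdown replicate 2 and -0.33 (adjusted p = 0.09996) with scaling to the total without mitochondrially encoded transcripts. MDH1, the cytosolic partner in the shuttle, had 185 ± 12.5 in knockdown and 217 ± 15.9 in control libraries (SD, n = 3 each) and did not pass (-0.23, adjusted p = 0.202).

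FH, the fumarase that makes malate for MDH2, had a lower fold change than MDH2 but wider spread. It had 87.8, 70.7 and 54.2 in knockdown replicates 1, 2 and 3, against 107, 108 and 108 in control replicates 1, 2 and 3. The control libraries agreed closely, the knockdown libraries did not, and all were below the control libraries (-0.62, SE 0.16, limma adjusted p = 0.0536). FH passed without knockdown replicate 1, as did IDH3A, and FH also with the same total per library.

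The 3 subunits of the NAD-dependent isocitrate dehydrogenase had similar fold changes and none passed (limma). IDH3A, the catalytic subunit, had -0.40 (adjusted p = 0.121), IDH3B -0.36 (adjusted p = 0.154) and IDH3G -0.27 (adjusted p = 0.286). On the deposited scale the groups were apart for IDH3A and IDH3B and overlapped for IDH3G. With scaling to the total without mitochondrially encoded transcripts, IDH3A and IDH3B overlapped too. IDH3B and IDH3G were lowest in knockdown replicate 1, at 52.8 and 24.4, and IDH3A in knockdown replicate 3, at 17.1. The NADP-dependent enzymes did not pass either. Cytosolic IDH1 averaged 243 in knockdown and 273 in control libraries (-0.17, adjusted p = 0.384), and mitochondrial IDH2 121 and 120 (0.02, adjusted p = 0.928). The IDH1 to IDH2 ratio was 2.01 ± 0.221 in knockdown and 2.32 ± 0.415 in control libraries (SD, n = 3 each) and overlapped.

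CS, citrate synthase, which admits acetyl-CoA to the cycle, averaged 60.7 ± 8.75 in knockdown and 74.4 ± 8.67 in control libraries (SD, n = 3 each; -0.29, limma adjusted p = 0.211). ACO1, the cytosolic aconitase that also serves as an iron sensor, was at 6.19 to 7.79 in knockdown and 8.09 to 10.1 in control libraries (-0.37, adjusted p = 0.138). Subunits of pyruvate dehydrogenase and of the oxoglutarate and succinyl-CoA steps had smaller differences. PDHA1 and PDHB had log2 fold changes of -0.11 and -0.20, OGDH, DLST and DLD -0.05, -0.23 and -0.08, and SUCLA2, SUCLG1 and SUCLG2 -0.08, -0.24 and -0.15. Of these 8 genes the groups were apart for PDHB and SUCLG1 alone on the deposited scale, and none passed. With scaling to the total without mitochondrially encoded transcripts, PDHB overlapped too.

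Genes that feed or link these pathways were read from lists of transporters, regulators and neighbouring enzymes. Of 6 genes tested of sugar, lactate and pyruvate transport, 1 fell (16.7%, beside 3.94% of all genes tested) and 0 rose (median -0.12). It was MPC1, a subunit of the mitochondrial pyruvate carrier, with 44.3, 28.0 and 32.8 in knockdown replicates 1, 2 and 3, against 60.1, 56.4 and 56.7 in control replicates 1, 2 and 3 (log2 fold change -0.73, SE 0.16, limma adjusted p = 0.0347). Its partner MPC2 averaged 220 in knockdown and 228 in control libraries (-0.05, adjusted p = 0.822). SLC2A1, the ubiquitous glucose transporter, had 5.07, 4.55 and 3.43 in knockdown replicates 1, 2 and 3, against 8.91, 6.64 and 5.82 in control replicates 1, 2 and 3, and did not pass (-0.60, SE 0.19, adjusted p = 0.0838). SLC2A3 and SLC2A2, other glucose transporters, were too low to be tested and had all knockdown values above all control values, at 0.81 in knockdown and 0.0767 in control libraries for SLC2A3 and at 0.227 and 0.07 for SLC2A2. SLC16A3, a lactate exporter, averaged 50.7 in knockdown and 38.5 in control libraries (0.38, adjusted p = 0.122).

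Of 12 genes tested of anaplerosis and malate-aspartate exchange, 1 rose and 1 fell, with a median of -0.28 and 10 of 12 below 0. Among all genes tested 4.15% rose and 3.94% fell. SLC25A11, the mitochondrial carrier that exchanges oxoglutarate for malate in the same shuttle as MDH2, had 15.4, 20.0 and 17.1 in knockdown replicates 1, 2 and 3, against 24.9, 28.3 and 25.1 in control replicates 1, 2 and 3 (-0.55, SE 0.13, limma adjusted p = 0.0418). ME3, a mitochondrial malic enzyme that makes pyruvate and NADPH from malate, had 6.04, 8.94 and 11.1 in knockdown replicates 1, 2 and 3, against 4.63, 3.78 and 3.99 in control replicates 1, 2 and 3 (0.89, SE 0.21, adjusted p = 0.0379). The groups were apart for both genes. ME1, the cytosolic malic enzyme, averaged 26.0 in knockdown and 49.2 in control libraries and did not pass (-0.96, SE 0.28, adjusted p = 0.0653). GLUD1, glutamate dehydrogenase, and GOT2, the mitochondrial aspartate aminotransferase, had the highest means over all 6 libraries of the list, although SLC25A1, a citrate carrier, was above GOT2 in the knockdown mean (67.9). GLUD1 averaged 422 in knockdown and 412 in control libraries (-0.003, adjusted p = 0.993), and GOT2 64.8 and 85.8 (-0.40, adjusted p = 0.0734).

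Of 8 glycogen genes tested, 1 fell (12.5%, beside 3.94% of all genes tested) and 0 rose (median -0.20). PGM2, which interconverts pentose phosphates and, less well, glucose phosphates, had 5.83, 5.57 and 4.29 in knockdown replicates 1, 2 and 3, against 7.85, 9.27 and 10.4 in control replicates 1, 2 and 3 (-0.71, SE 0.16, limma adjusted p = 0.0366). UGP2, which makes UDP-glucose, averaged 179 in knockdown and 149 in control libraries (0.26, adjusted p = 0.167), and PYGL, the liver glycogen phosphorylase, 44.9 and 56.3 (-0.32, adjusted p = 0.0898). Among 8 regulators and other subunits of pyruvate dehydrogenase 0 passed (limma), with 2 lower and 1 higher at an unadjusted p below 0.05 and a median of -0.25. The subunits DLAT, at 20.6 in knockdown and 24.6 in control libraries, and PDHX, at 18.9 and 24.0, had log2 fold changes of -0.25 and -0.34. MPC1, SLC25A11, ME3 and PGM2 each failed to pass when any single library other than knockdown replicate 1 was left out. With scaling to the total without mitochondrially encoded transcripts MPC1 (-0.62, adjusted p = 0.0437) and ME3 (0.98, adjusted p = 0.0363) passed, while SLC25A11 (-0.45, adjusted p = 0.114) and PGM2 (-0.61, adjusted p = 0.0692) did not.

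**Figure D4:**
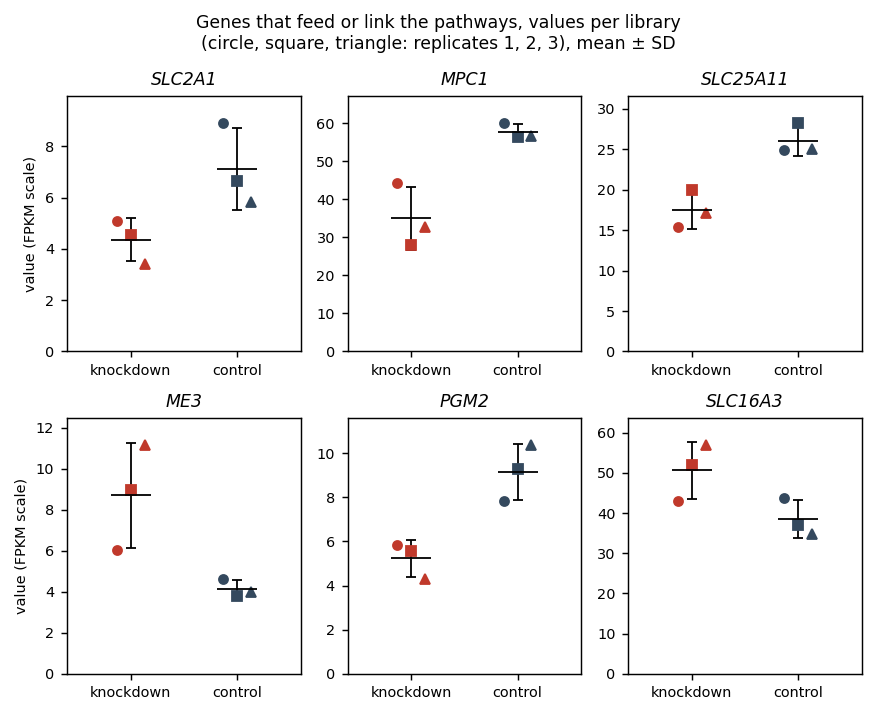
Values of 6 genes outside the enzyme list in each library, with the mean and SD of each group; the axes start at 0. The knockdown values lie below all control values for MPC1, SLC25A11 and PGM2 and above them for ME3, and SLC2A1, also below, did not pass (adjusted p = 0.0838).

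**Figure D5:**
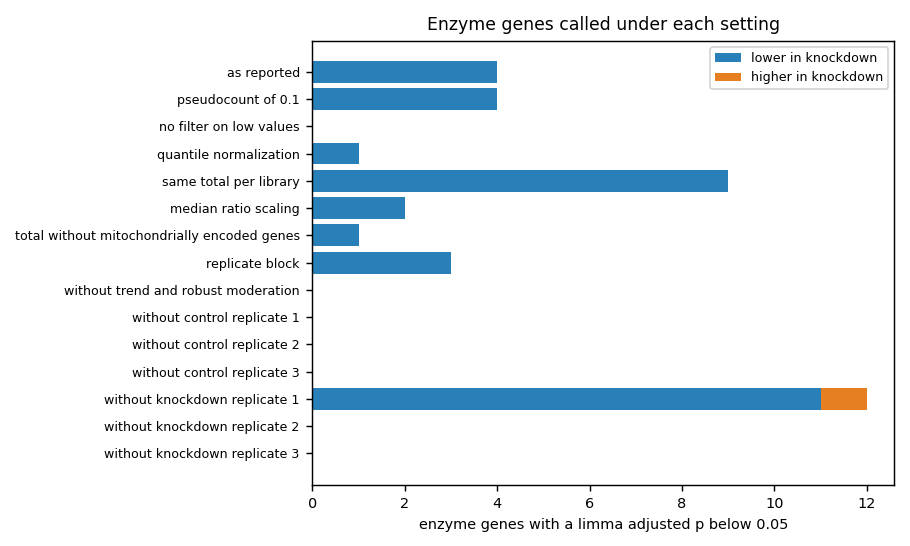
Number of the enzyme genes with a limma adjusted p below 0.05 in the fit as reported and in 14 alternatives; blue is lower and orange higher in knockdown libraries. The count is 4 as reported, 9 with the same total per library, 12 without knockdown replicate 1 and 0 when any other single library is left out.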

How the data were processed

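RNA of 3 knockdown and 3 control Huh7 libraries was sequenced, with groups and replicate numbers taken from the titles. The authors deposited 1 table of 23344 human genes with 1 column per library. Its unit is not named; the deposited values are not whole numbers and were treated as FPKM, although TPM with some genes left out could look the same. Per the submitters' processing notes, RSEM 1.1.17, Bowtie2 2.2.6 and Trimmomatic 0.36 were among the tools, without a stated role, and the build was the mouse one mm10, although all IDs are human; gene coordinates are not taken from the deposited table. Read depth is unknown, so no counting intervals were computed.

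The 13696 genes that reached 1 in 3 or more libraries were tested. Values were tested as log2(value + 1) with limma 3.58.1 in R 4.3.3 (mean-variance trend, robust moderation, two-sided, Benjamini-Hochberg adjustment over all genes tested, threshold 0.05). A fold change is knockdown minus control on that scale, so changes of low genes are understated. A count model had been planned for the case of counts and was not used. The test was run on simulated data with independent noise for each gene and no shift of whole libraries, so it cannot speak to such shifts. Each gene analysed is accounted for, with full values for those that passed, their isozymes and pathway neighbours, and from each other list those that passed and the 2 with the highest level. The enzyme genes and the other lists were chosen with earlier results of these data known. Same-numbered libraries were not treated as pairs. Alternatives were a pseudocount of 0.1, no filter, 4 scalings, the replicate block, limma without trend and robust moderation, and leaving out each library.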

Additional observations from a re-analysis of the deposited data

How the results depend on the processing

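Over all genes, 1107 passed as reported (568 higher, 539 lower), against 221 (157 higher, 64 lower) with no filter on low values and 727 (450 higher, 277 lower) without trend and robust moderation. The split was 518 higher and 812 lower with the same total per library, 646 and 354 with median ratio scaling, and 680 and 223 with the total without mitochondrially encoded transcripts. Leaving out 1 library gave 54 (without control replicate 2) to 3342 (without knockdown replicate 1).

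Of the enzyme genes, 4 passed as reported, 0 with no filter or without trend and robust moderation (limma; 17 and 13 at an unadjusted p below 0.05), 1 with quantile normalization or the total without mitochondrially encoded transcripts, 2 with median ratio scaling, 9 with the same total, and 0 to 12 with 1 library left out. ALDOA, PGAM1, LDHA and MDH2 had fold changes below 0 in all 14 alternatives; ALDOA passed in 7 (adjusted p 0.00118 to 0.112), and PGAM1 (0.0243 to 0.145), LDHA (0.0169 to 0.157) and MDH2 (0.0140 to 0.132) in 4 each. The cause of these shifts was not tested. The VCAN log2 fold change was -1.56 to -1.23 with 1 library left out, and did not pass without control replicate 2 (-1.40). The log2 fold (knockdown over control) of the mean LDHA to LDHB ratio was -1.002 with all libraries and -1.69 to -0.70 with 1 library left out.

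The labels do not say whether same-numbered libraries are pairs. Their deviations from the group means correlated at 0.05, 0.10 and 0.14, and those of the other pairs at -0.21 to 0.09. Knockdown replicates 2 and 3 correlated best with the control of the same number, and knockdown replicate 1 with control replicate 2 (0.09). With the replicate block 861 genes passed (459 higher, 402 lower), of the enzyme genes 3 (ALDOA, PGAM1 and LDHA), and VCAN had -1.39 (adjusted p = 0.0335). Count-based alternatives were not run, because no counts were used. The PCK1 to PCK2 ratio was not computed. Depth is unknown, and low values such as LDHB limit what can be told of a gene.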

Other observations

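Outside the enzymes, regulators of sugar metabolism had fold changes mostly above 0. Of 9 tested, 1 rose and 0 fell, beside 4.15% of all genes tested that rose and 3.94% that fell. Of the 9, 6 were above 0, and the median log2 fold change was 0.41, beside -0.03 for all genes. MYC, a transcription factor known to drive glycolytic genes, had 40.7, 38.5 and 33.0 in knockdown replicates 1, 2 and 3, against 12.5, 22.6 and 22.5 in control replicates 1, 2 and 3 (0.97, SE 0.22, limma adjusted p = 0.0351). MYC was higher while LDHA, ALDOA and PGAM1 were lower in the same libraries, and a link between them was not tested. MYC did not pass when any single library other than knockdown replicate 1 was left out. CREB3L3, a liver factor of fasting metabolism, averaged 88.8 in knockdown and 39.8 in control libraries (1.11, adjusted p = 0.0516), and HIF1A 137 and 176 (-0.34, adjusted p = 0.210).

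Of 15 targets of hypoxia-inducible factors outside glycolysis, 1 rose and 0 fell (median 0.04), beside 4.15% of all genes tested that rose. It was CA9, a carbonic anhydrase of the cell surface, with 1.53, 2.34 and 6.40 in knockdown replicates 1, 2 and 3, against 0, 0.200 and 0.270 in control replicates 1, 2 and 3 (1.79, SE 0.36, limma adjusted p = 0.0278). CA9 did not pass when any 1 control library was left out (adjusted p 0.0660 to 0.103), without knockdown replicate 2 (0.0719) or when low genes were kept in the fit (0.0724). BNIP3 averaged 81.6 in knockdown and 86.1 in control libraries (-0.08, adjusted p = 0.740), and VEGFA 55.4 and 45.2 (0.27, adjusted p = 0.267).

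Of 9 hepatocyte markers 3 rose and 1 fell (limma), beside 4.15% of all genes tested that rose and 3.94% that fell. FGB, a fibrinogen chain, averaged 2478 in knockdown and 1529 in control libraries (0.70, adjusted p = 0.0188), FGA, another chain, 853 and 643 (0.41, adjusted p = 0.0487), and APOA1, the main protein of high-density lipoprotein, 127 and 62.7 (1.05, adjusted p = 0.0325). TTR, the thyroxine carrier transthyretin, averaged 11.01 in knockdown and 26.5 in control libraries (-1.19, adjusted p = 0.00770). TTR passed in all 14 alternatives, FGB in 10, APOA1 in 7 and FGA in 5. FGB and APOA1 did not pass without control replicate 2 or 3 or knockdown replicate 2 or 3, and FGA passed with 1 library left out only without knockdown replicate 1. Of 3 blood cell markers tested LYZ, lysozyme, rose (44.5, 68.2 and 37.8 in knockdown replicates 1, 2 and 3, against 18.3, 24.7 and 24.8 in control replicates 1, 2 and 3; 1.08, adjusted p = 0.0277), and S100A9 was at 30.6 in knockdown replicate 2 and 4.13 or less in the 5 other libraries. LYZ did not pass when any 1 control library was left out (adjusted p 0.0622 to 0.0946), without knockdown replicate 2 (0.84, adjusted p = 0.0688) or when low genes were kept in the fit (adjusted p = 0.0736).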
